A study of Mus musculus with 10 samples.

Results

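The 7 genes of the deposited table, C1ql2, Mdga2, Tectb, Reg3g, Art2a-ps, Serpina11 and Galnt14, are described here across lymph node lymphatic endothelial cells (LN-LEC), lymph node blood endothelial cells (LN-BEC) and diaphragm lymphatic endothelial cells (D-LEC). They are 7 of 23284 gene rows, and all 7 passed the filter on low values. They were selected on these same libraries, for high LN-LEC counts beside counts near zero in D-LEC or in LN-BEC, so their levels in the 3 populations are given as a description and carry no test. The filter was a mean normalized count of at least 1 in 1 population, which each of the 7 met through LN-LEC.

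The cells came from C57BL/6 (B6) mice, 6 to 8 weeks old, with no treatment or transgene named in the labels. LN-LEC (4 libraries) and LN-BEC (3 libraries) came from inguinal, axillary, brachial, cervical and mesenteric lymph nodes combined, and D-LEC (3 libraries) from the diaphragm. After depletion of CD45+ cells, cells positive for CD31, a protein of all endothelium, were sorted into LEC (PDPN+) and BEC (PDPN-). Each library is a pool of several mice, so the spread between libraries describes pools and not single animals, and in such bulk RNA fewer expressing cells and less RNA per cell cannot be told apart. The libraries held 22429940 to 48906070 counted fragments, with LN-LEC replicate 4 the deepest. Levels are normalized counts, the fragments of a library over its DESeq2 size factor, and 3 fragments, the floor used here for a library without counts, equal 0.0613 to 0.134 CPM. The lymphatic markers Lyve1, Pdpn, Prox1, Reln, Flt4 and Mmrn1 were present in LN-LEC and D-LEC. Ccl21a, which encodes a chemokine of the same cells, had 0 counts in all 10 libraries. Only unique fragments were counted, and second copies of Ccl21a in the genome were not examined, so its 0 counts do not show absence.

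Lymphatic endothelial cells of the lymph node line the sinuses through which lymph passes, and they meet antigen, lymphocytes and macrophages there, while those of the diaphragm form collecting and absorbing vessels of a muscle. The 7 genes belong to different families that are best known from other tissues. C1ql2 encodes a secreted C1q-like protein of synapses, which binds the adhesion receptor Bai3. Mdga2 encodes a membrane-anchored immunoglobulin-domain protein that binds neuroligins and hinders their contact with neurexins. Tectb encodes beta-tectorin of the tectorial membrane of the inner ear. Reg3g encodes a C-type lectin that kills Gram-positive bacteria at the gut surface. Art2a-ps belongs to the cell surface ADP-ribosyltransferases known from T cells, and the suffix of its symbol marks the copy in this strain as a pseudogene. Serpina11 is a little studied member of the serpin clade of alpha-1-antitrypsin. Galnt14 encodes an enzyme that adds the first sugar of mucin-type O-glycans.

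The sequence before the annotated transcript start differed in kind between the 7 genes. In windows of 300 bases (250 before and 50 after the start), C1ql2, Mdga2 and Galnt14 had a GC content of 67.3%, 67.7% and 67.3% and held 23, 22 and 23 CG dinucleotides. The observed number of CG relative to that expected from base composition was 0.679, 0.642 and 0.724 in these windows, where the median of 23179 such windows of the annotation was 0.565 and the median GC content 56.3%. The remaining members were CG-poor. Tectb and Serpina11 had 4 CG each, Reg3g had 1 and Art2a-ps had 0, at a GC content of 46.0%, 51%, 47.3% and 40%. Shown next, from the mm9 genome and 5′ to 3′ on the strand of each gene, are the 250 bases before the start of 3 genes. C1ql2 is shown as the CG-rich gene among the abundant ones largely restricted to LN-LEC, and Mdga2 and Reg3g as the CG-rich and the CG-poor gene present in both lymph node populations. Capitals mark CG dinucleotides and, in Reg3g, the letters TATAAA.
C1ql2, chr1:122236909-122237158, plus strand: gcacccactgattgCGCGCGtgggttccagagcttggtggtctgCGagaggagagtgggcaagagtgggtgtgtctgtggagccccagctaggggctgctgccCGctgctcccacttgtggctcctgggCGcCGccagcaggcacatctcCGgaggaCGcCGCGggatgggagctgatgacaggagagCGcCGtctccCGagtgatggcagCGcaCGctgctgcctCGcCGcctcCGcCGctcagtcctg
Mdga2, chr12:68323537-68323786, minus strand: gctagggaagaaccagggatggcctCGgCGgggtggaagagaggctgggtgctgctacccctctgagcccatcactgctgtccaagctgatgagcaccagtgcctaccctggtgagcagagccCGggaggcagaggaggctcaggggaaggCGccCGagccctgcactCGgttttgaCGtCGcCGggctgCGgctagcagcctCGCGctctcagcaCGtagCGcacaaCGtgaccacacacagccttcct
Reg3g, chr6:78418869-78419118, minus strand: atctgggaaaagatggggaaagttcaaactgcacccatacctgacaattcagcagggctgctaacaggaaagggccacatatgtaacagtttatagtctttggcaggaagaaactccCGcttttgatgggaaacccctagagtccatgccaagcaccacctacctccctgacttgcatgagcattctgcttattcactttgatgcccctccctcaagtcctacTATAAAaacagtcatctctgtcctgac
Each expression pattern thus held a CG-rich and a CG-poor start. In these 250 bases C1ql2 had 20 CG, Mdga2 15 and Reg3g 1. The 8 short motifs were searched on both strands of the windows of 300 bases. TATAAA, the letters of the TATA box, was found in Reg3g, 27 bases before the start on the strand of the gene and 161 bases before it on the opposite strand, and in 13% of all windows. GGANTTTCC, part of an NF-kB site, was found in Tectb (34 bases before the start, opposite strand) and in 1.27% of windows. TTCNNNGAA, a STAT motif, was found in Serpina11 (51 bases before) and in 7.99% of windows, and AGGTCA, a nuclear receptor half-site, was also found in Serpina11 (41 bases before, opposite strand) and in 13.9% of windows. The letters CCGGAAGT (ETS), GTAAACA (forkhead), TGACTCA (AP-1) and ACAATGG (SOX) were in none of the 7 windows and in 5.06%, 3.09%, 4.51% and 3.11% of all windows. The matches overlapped one another in no member and are descriptions of letters, not sites of binding.

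Outside LN-LEC the 7 genes followed 3 patterns. Mdga2 and Reg3g were present in both lymph node populations and had 0 counts in D-LEC. C1ql2, Tectb and Art2a-ps were high in LN-LEC, had a few percent of that level in LN-BEC and had 0 to 2 counts in a D-LEC library. Serpina11 and Galnt14 were low in LN-LEC and had 0 counts in all 6 other libraries.

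**Figure D1:**
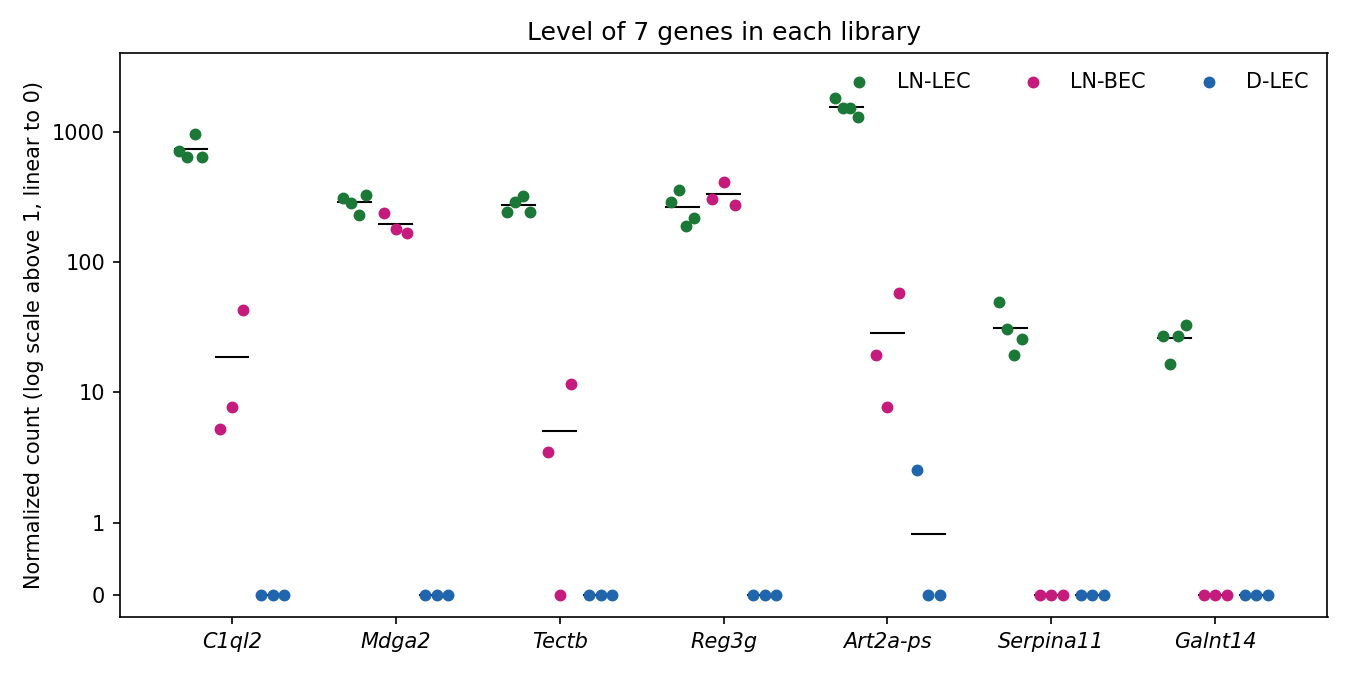
Normalized count of each of the 7 genes (y axis, logarithmic above 1 and linear down to 0) in every library, with LN-LEC in green (4 libraries), LN-BEC in pink (3) and D-LEC in blue (3), and a black line at each mean. The D-LEC points lie at 0 except for 1 library of Art2a-ps, and LN-BEC points reach the height of the LN-LEC points for Mdga2 and Reg3g only.

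In D-LEC, 6 of the 7 genes had 0 counts in all 3 libraries, and Art2a-ps had 2, 0 and 0. LN-LEC libraries lay above all D-LEC libraries for 7 of 7 members. Over all 15373 genes tested, 25.3% had every LN-LEC library above every D-LEC library and 24% were called higher in LN-LEC by edgeR's quasi-likelihood test at an adjusted p under 0.05. Because the members were selected for this difference, nothing is read from that count. LN-LEC also lay above all LN-BEC libraries for 5 of 7 members, where 22.4% of all genes did so and 19.8% were called higher in LN-LEC. LN-LEC lay above all other libraries for the same 5 genes, which held for 11.2% of genes tested. LN-BEC lay above all D-LEC libraries for 4 of 7 members (C1ql2, Mdga2, Reg3g and Art2a-ps), where 29% of all genes did so and 25.6% were called higher in LN-BEC. The median fitted log2 difference of the 7 genes was 11.08 for LN-LEC over D-LEC, and 6.46 when genes with no count in D-LEC were placed at the floor of 3 counts per library, beside a median of 0.03 over all genes tested. For LN-LEC over LN-BEC the median was 5.83, or 3.48 with such genes at the floor, beside -0.01 over all genes.

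The 7 genes can also be placed by rank. The ranks use the values that selected the genes, so high ranks follow from the selection and nothing is read from them. Of the genes tested, 647 had 0 counts in every D-LEC library, 108 of them with a mean LN-LEC level of at least 10 normalized counts and 18 with at least 100. C1ql2, Mdga2, Tectb and Reg3g were ranks 1 to 4 of these 647 by LN-LEC level. The next genes, named for this rank after their values were seen, were Xlr5b at 247, Xlr5a at 219 and Dbx2 at 206 normalized counts. Serpina11 and Galnt14 were ranks 50 and 58. Of the genes tested, 61 had 0 counts in all D-LEC and all LN-BEC libraries, and these passed the filter through LN-LEC alone. Serpina11 and Galnt14 were ranks 1 and 2 among them, ahead of Olfr518 at 21.3 and Olfr985 at 12.5 normalized counts.

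Within LN-LEC the members spanned a wide range of abundance. Scaled by exon length, the mean level in LN-LEC was 1217 ± 164 normalized counts per kb for Art2a-ps (SD, n = 4), 367 ± 73.5 for C1ql2, 338 ± 96.6 for Reg3g, 99.8 ± 13.8 for Tectb, 29.1 ± 4.27 for Mdga2, 20.9 ± 8.67 for Serpina11 and 10.5 ± 2.75 for Galnt14. In this order the libraries of C1ql2 and Reg3g overlapped, as did those of Mdga2 and Serpina11 and those of Serpina11 and Galnt14, so that these neighbours were not separated by their spread. Art2a-ps lay at the 89.3rd percentile of genes tested on this per-length scale in LN-LEC, whereas Serpina11 and Galnt14 lay at the 29.0th and 24.2nd. 

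Art2a-ps, on chromosome 7 from 108700967 to 108709379 of mm9 (minus strand, 4 exon blocks), was the most abundant member. Its normalized counts in LN-LEC replicates 1 to 4 were 1791, 1520, 1522 and 1286. In LN-BEC replicates 1 to 3 they were 19.3, 7.78 and 57.8, and in D-LEC they were 2.52, 0 and 0. All 4 LN-LEC libraries were high and none overlapped the other populations, with LN-BEC replicate 3 the highest library outside LN-LEC. The mean was 1530 ± 207 in LN-LEC (SD, n = 4) and 28.3 ± 26.2 in LN-BEC (n = 3), a ratio of 54.1. Against D-LEC, where 2 fragments were counted in all, the ratio of summed counts was 2221, with an exact 95% interval of 615 to 18343 that covers counting error only.

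C1ql2 has 2 exon blocks on chromosome 1, from 122237159 to 122239751 of mm9 (plus strand). Its levels in LN-LEC were 712, 642, 949 and 635, with replicate 3 the highest. In LN-BEC they were 5.25, 7.78 and 43.1, and the D-LEC libraries had 0 counts. The LN-LEC mean of 734 ± 147 (SD, n = 4) was 39.3 times the LN-BEC mean of 18.7 ± 21.1 (n = 3) and at least 238-fold higher than the D-LEC floor.

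Tectb, with 10 exon blocks from 55255375 to 55270803 of chromosome 19 (plus strand, mm9), had levels of 240, 286, 319 and 243 in LN-LEC. The LN-BEC libraries had 3.50, 0 and 11.6, and D-LEC had 0 counts. Again LN-BEC replicate 3 was the highest outside LN-LEC. The mean of 272 ± 37.6 in LN-LEC (SD, n = 4) was 54.2 times the 5.02 ± 5.92 of LN-BEC (n = 3) and at least 88.0-fold higher than the D-LEC floor.

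Mdga2 extends over 17 exon blocks from 67567046 to 68323536 of chromosome 12 (minus strand, mm9), the longest locus of the 7. Its levels were 309, 282, 230 and 326 in LN-LEC and 238, 179 and 168 in LN-BEC, and 0 in every D-LEC library. The lowest LN-LEC library lay under the highest LN-BEC library, so the lymph node populations overlapped. The means of 286 ± 42.0 (SD, n = 4) and 195 ± 37.7 (n = 3) had a ratio of 1.47, and they were at least 92.7-fold and 63.1-fold higher than the D-LEC floor.

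Reg3g, from 78416262 to 78418868 of chromosome 6 (minus strand, mm9, 6 exon blocks), was the member with the higher mean in LN-BEC. LN-LEC had 289, 354, 188 and 217, LN-BEC had 306, 413 and 273, and D-LEC had 0 counts. The LN-LEC and LN-BEC libraries overlapped. The mean was 262 ± 74.8 in LN-LEC (SD, n = 4) and 331 ± 73.3 in LN-BEC (n = 3), a ratio of 0.792, and both were far above the D-LEC floor (at least 84.8-fold and 107-fold higher).

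Serpina11, from 105218453 to 105228167 of chromosome 12 (minus strand, mm9, 5 exon blocks), had 38, 24, 17 and 41 fragments in the LN-LEC libraries, which are 49.3, 30.5, 19.2 and 25.8 normalized counts. Galnt14, from 73843091 to 74059791 of chromosome 17 (minus strand, mm9, 15 exon blocks), had 21, 13, 24 and 52 fragments, or 27.2, 16.5, 27.1 and 32.7 normalized counts. Neither had a fragment in any LN-BEC or D-LEC library. At these depths the LN-LEC mean of Serpina11, 31.2 ± 12.9 (SD, n = 4), was at least 10.1-fold higher than the D-LEC floor and 11.2-fold higher than the LN-BEC floor, and that of Galnt14, 25.9 ± 6.77, at least 8.38-fold and 9.28-fold higher. The bounds are smaller than those of the other members because the LN-LEC counts are smaller.

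The LN-BEC signal of C1ql2, Tectb and Art2a-ps was highest in replicate 3, the library in which lymphatic markers and the epithelial markers Epcam, Cdh1 and Krt8 were also highest. In LN-BEC replicates 1, 2 and 3, C1ql2 stood at 0.715%, 1.06% and 5.86% of its LN-LEC mean. The corresponding values were 1.29%, 0% and 4.25% for Tectb and 1.26%, 0.509% and 3.78% for Art2a-ps. Among the lymphatic markers, Lyve1 stood at 1.45%, 1.06% and 5.89%, Reln at 1.42%, 0.942% and 5.23%, and Prox1, the master transcription factor of the lineage, at 2.57%, 1.42% and 4.31%. Pdpn and Mmrn1 behaved alike, with 6.23% and 6.66% in replicate 3, while Flt4 was at 11.9% to 16.6% in all 3 libraries. Replicate 3 exceeded the mean of the other LN-BEC libraries by 6.61 times for C1ql2, 6.60 times for Tectb and 4.27 times for Art2a-ps, and by 2.16 to 4.69 times for the lymphatic markers other than Flt4. For Epcam, Cdh1 and Krt8 the same ratio was 6.64, 6.25 and 6.53, and for Vil1 it was 1.05. Replicates 1 and 2 stood in the same order for Tectb, Art2a-ps and the lymphatic markers and in the opposite order for C1ql2. Without replicate 3 the LN-BEC mean fell from 2.55% to 0.887% of the LN-LEC mean for C1ql2, from 1.85% to 0.644% for Tectb and from 1.85% to 0.884% for Art2a-ps. Lyve1, Pdpn, Prox1, Reln and Mmrn1 stood at 1.18% to 2.0% without it. For Mdga2 and Reg3g the order of the libraries was different. Mdga2 was at 83.1%, 62.5% and 58.7% of LN-LEC and Reg3g at 117%, 158% and 104%, with the lowest value of both in replicate 3. The part of lymphatic or epithelial RNA in the LN-BEC libraries in these values was not tested.

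**Figure D2:**
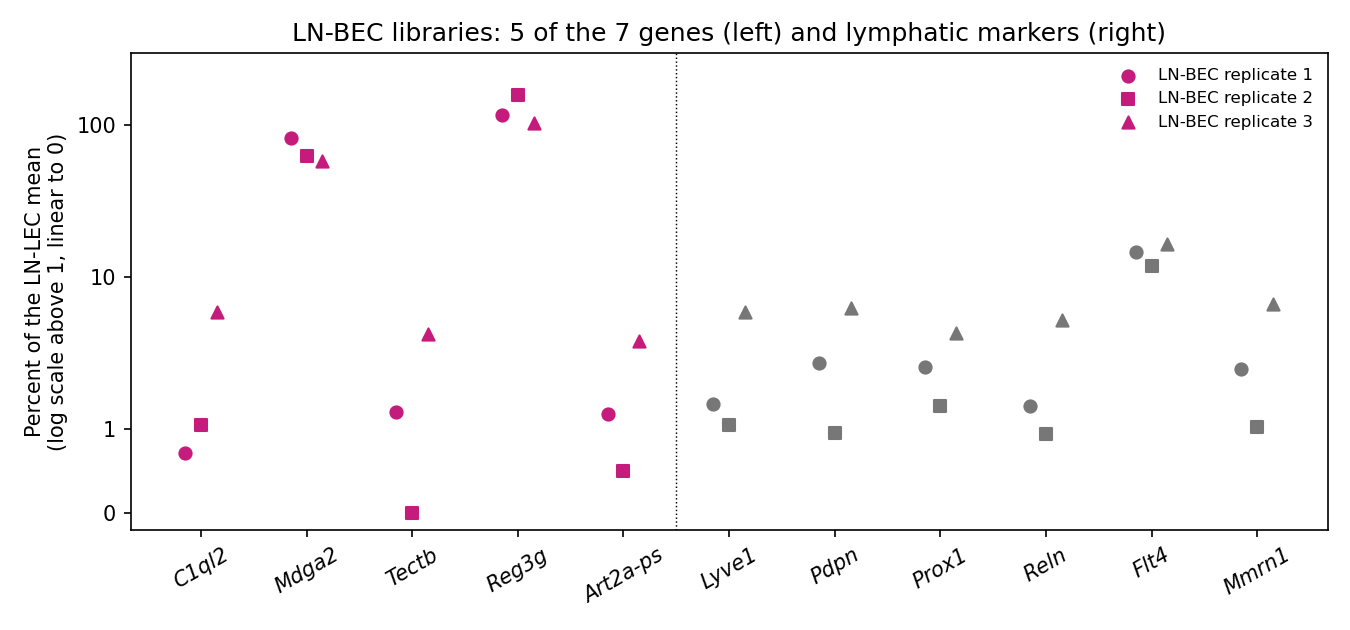
Level in each LN-BEC library as percent of the mean in LN-LEC (y axis, logarithmic above 1 and linear down to 0) for the 5 members with LN-BEC counts (pink, left of the dotted line) and 6 lymphatic markers (grey). Triangles, LN-BEC replicate 3, are the highest point for C1ql2, Tectb, Art2a-ps and each marker, and the lowest for Mdga2 and Reg3g.

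Markers of other cells were compared with the members in the same libraries. Of 6 T cell markers in the table, 5 fell in LN-LEC relative to LN-BEC by edgeR (adjusted p under 0.05), where 38.2% of all genes tested were called. Cd3e, a chain of the T cell receptor complex, was 10.7 ± 5.18 in LN-LEC (SD, n = 4) and 109 ± 27.0 in LN-BEC (n = 3; log2 difference of LN-LEC over LN-BEC -3.26, standard error 0.74, edgeR adjusted p = 0.0043). The summed level of the 6 genes was 43.0 to 67.9 in LN-LEC libraries and 302 to 478 in LN-BEC libraries. It was 1606 to 2198 in D-LEC, of which Cd2 alone made up 1807 on average. The part of T cell RNA in the levels of Art2a-ps, which was higher in LN-LEC, was not tested. Among the 5 epithelial markers, Epcam was 95.9, 66.0, 88.2 and 295 in LN-LEC replicates 1 to 4, 175, 100 and 914 in LN-BEC, and 1.0 to 8.83 in D-LEC. Cdh1 was likewise highest in LN-LEC replicate 4 (127) and LN-BEC replicate 3 (394). The summed level of these 5 genes ranged from 209 to 597 in LN-LEC, 258 to 1568 in LN-BEC and 70.1 to 103 in D-LEC. Krt8 was highest in the same libraries of the lymph node, but its mean in D-LEC, 57.3 ± 22.3 (SD, n = 3), stood beside 31.2 ± 33.0 in LN-LEC (n = 4) and was not called different (edgeR adjusted p = 0.53). Vil1 had 94.9 to 112 in LN-LEC, 51.6 to 68.3 in LN-BEC and 12.6 to 34.1 in D-LEC, and Fabp1 at most 4.13 in any library. In LN-BEC replicate 3, where Epcam, Cdh1 and Krt8 peaked, C1ql2, Tectb and Art2a-ps had their highest LN-BEC levels and Mdga2 and Reg3g their lowest. Among LN-LEC libraries replicate 4 was the highest for Galnt14 and Mdga2, but by far less than for Epcam. Of 8 lymphatic subset markers, 5 were higher and 3 lower in LN-LEC relative to D-LEC, and 5 were higher and 2 lower relative to LN-BEC. Among all genes tested, 45.8% and 38.2% were called in these comparisons. Marco, Itga2b and Ccrl1 were higher than in both other populations, and Cav1 was lower than in both. Ptx3 and Kcnj8 were lower than in D-LEC and higher than in LN-BEC, Madcam1 was higher than in D-LEC and lower than in LN-BEC, and Cd274 was higher than in D-LEC and not called against LN-BEC (edgeR adjusted p = 0.17).

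The relatives and known partners of the 7 genes were not used in selecting them and were tested. Their lists were chosen with earlier results of these data known, so the shares called are not independent of these data. Of 95 genes listed for the 7 families, 91 had a row and 74 passed the filter. LN-LEC exceeded D-LEC in 30 of the 74 and fell under it in 14 (59.5% called, where 45.8% of all genes tested were called), with a median log2 difference of 0.81. Between LN-LEC and LN-BEC, 19 were higher in LN-LEC and 17 lower (48.6% called, background 38.2%), with a median of -0.12. LN-BEC exceeded D-LEC in 38 and fell under it in 19 (77.0% called, background 48%). The comparisons with D-LEC share the same D-LEC libraries.

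Of 7 tested genes around C1ql2, 3 were above D-LEC in LN-LEC and 0 lower, where 45.8% of all genes tested were called. Against LN-BEC, 2 were higher in LN-LEC and 1 lower, where 38.2% of all genes were called. The lower gene was Cbln1, with 0 counts in every LN-LEC library and 18.9 to 24.2 normalized counts in LN-BEC (edgeR adjusted p = 2.1e-04). C1ql3, the closest relative detected, had 667 ± 83.7 normalized counts (LN-LEC, SD, n = 4), 186 ± 22.9 (LN-BEC, n = 3) and 17.4 ± 1.45 (D-LEC, n = 3). It rose in LN-LEC over D-LEC (log2 difference 5.27, standard error 0.18, edgeR adjusted p = 6e-11) and over LN-BEC (1.86, 0.14, edgeR adjusted p = 1.1e-07). C1ql3 thus differed from C1ql2 in having counts in every library of all 3 populations, while C1ql1 and C1ql4 had 0 counts in all 10. Bai3, the receptor gene, was low, at 22.8 ± 2.76 (LN-LEC), 4.29 ± 1.72 (LN-BEC) and 0 (all D-LEC libraries), and was called higher in LN-LEC in both comparisons (edgeR adjusted p = 4.7e-05 and 0.0044). Grik2, which encodes a kainate receptor subunit, had 18.1 ± 8.42, 5.87 ± 5.20 and 0, with a call over D-LEC only (edgeR adjusted p = 9.2e-04, and 0.12 over LN-BEC).

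Of 7 tested partners of Mdga2, 3 were higher and 2 below D-LEC in LN-LEC, where 45.8% of all genes tested were called. Its paralog Mdga1 was near the detection limit, at 3.89 ± 1.76 (LN-LEC, SD, n = 4), 0.292 ± 0.505 (LN-BEC, n = 3) and 0.668 ± 1.16 (D-LEC, n = 3), and was not called (edgeR adjusted p = 0.11 and 0.056). Nlgn2, a neuroligin that Mdga proteins bind, stood at 1800 ± 155, 222 ± 42.1 and 810 ± 105 in that order of populations. LN-LEC exceeded D-LEC (log2 difference 1.17, standard error 0.13, edgeR adjusted p = 5.1e-06) and also LN-BEC (3.04, 0.14, edgeR adjusted p = 1.5e-09). Nrxn3 and Nlgn1 were lower in LN-LEC. Against LN-BEC, 3 of the 7, Nlgn2 and Nrxn2 among them, were higher in LN-LEC and 0 lower, where 38.2% of all genes were called.

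Tecta, which encodes the partner of beta-tectorin, was not raised with Tectb. It had 1.68 ± 0.482 (LN-LEC, SD, n = 4), 2.44 ± 0.295 (LN-BEC, n = 3) and 9.46 ± 6.10 (D-LEC, n = 3), and LN-LEC lay under D-LEC (log2 difference -2.33, standard error 0.70, edgeR adjusted p = 0.015). With 41 fragments over all 10 libraries, Tecta was near the floor in both lymph node populations, and the size of this difference is uncertain. Ceacam16, another protein of the tectorial membrane, was higher in LN-LEC, at 43.8 ± 13.1, than in D-LEC, at 0.826 ± 1.43 (5.34, 0.66, edgeR adjusted p = 1.7e-05). Its level in LN-BEC, 45.8 ± 5.22, lay in the range of LN-LEC (-0.06, 0.42, edgeR adjusted p = 0.94), which is unlike Tectb.

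The Reg genes beside Reg3g were uneven, and Reg1 exceeded Reg3g in LN-LEC replicate 4 and LN-BEC replicate 3. Reg1 had 22, 189, 48.6 and 285 in LN-LEC, 4.38, 99.5 and 660 in LN-BEC, and 0 to 5.78 in D-LEC. Reg2 had 5.18 to 38.3 in LN-LEC, 2.63 to 57.8 in LN-BEC and no count in D-LEC, and was called in LN-LEC over D-LEC (edgeR adjusted p = 0.009), whereas Reg1 and Reg3b were not (0.067 and 0.052). In LN-BEC over D-LEC, Reg1, Reg2 and Reg3d were called (edgeR adjusted p = 0.042, 0.0054 and 0.026) and Reg3b was not (0.21). Reg1 was highest in LN-LEC replicate 4 and LN-BEC replicate 3, the libraries with most Epcam, and Reg3g was not. The coefficient of variation of Reg3g was 28.6% in LN-LEC and 22.1% in LN-BEC. Of the genes through which IL-22 and bacterial products act on Reg3g in gut, Il22ra1 was nearly absent from the lymph node populations (0.471 ± 0.943 in LN-LEC and 0 in LN-BEC, against 13 ± 5.17 in D-LEC, edgeR adjusted p = 0.0045 for LN-LEC under D-LEC), and for Myd88 LN-LEC exceeded D-LEC (438 ± 22.5 against 306 ± 27.2, log2 difference 0.54, standard error 0.11, edgeR adjusted p = 9.7e-04). Stat3 was not called in any of the 3 comparisons (edgeR adjusted p = 0.26, 0.5 and 0.72).

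Art2b, the functional neighbour of Art2a-ps, followed the same pattern at a lower level. It had 50.6, 64.7, 67.8 and 45.9 in LN-LEC, 0.875, 0 and 4.2 in LN-BEC and no count in any D-LEC library, and was called higher in LN-LEC over both (edgeR adjusted p = 2.5e-05 over D-LEC and 1e-04 over LN-BEC). Art2a-ps counts were 22.4 to 35.4 times the Art2b counts in the LN-LEC libraries. The 2 genes are similar in sequence, with 1151 aligned exon bases at 86.8% identity. Of windows of 100 exon bases, 2.99% of Art2a-ps and 4.08% of Art2b had an exact second copy in the genome, so that little of either gene was beyond unique counting, and each is uncertain to that extent. The 6 other members had 0% such windows, and none of the 7 shared an exon base with another annotated gene. Among the other ADP-ribosyltransferases, Art4 was also highest in LN-LEC (422 ± 56.9, 115 ± 56.0 and 50.9 ± 10.5, log2 difference over D-LEC 3.05, standard error 0.34, edgeR adjusted p = 1.2e-05). Art3 was high in both lymph node populations (832 ± 166 and 920 ± 247, against 20.1 ± 11.9 in D-LEC, edgeR adjusted p = 6.6e-07 for LN-LEC over D-LEC). P2rx7, the ATP receptor that ART2 enzymes modify on T cells, was lowest in LN-LEC, at 716 ± 128 against 2042 ± 245 in LN-BEC and 1071 ± 107 in D-LEC (edgeR adjusted p = 1.5e-06 and 0.0053).

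Of 16 tested serpins of clade A, 9 were higher in LN-LEC and 2 lower relative to D-LEC, and 8 were higher and 3 lower relative to LN-BEC. The shares called over all genes tested were 45.8% and 38.2%. Serpina12, 38.8 kb from Serpina11, was likewise highest in LN-LEC, with 256 ± 35.0 (LN-LEC, SD, n = 4), 11 ± 7.73 (LN-BEC, n = 3) and 0.275 ± 0.477 (D-LEC, n = 3; log2 difference over D-LEC 9.16, standard error 0.64, edgeR adjusted p = 5.3e-08). Its LN-BEC level was called over D-LEC (edgeR adjusted p = 5.8e-04), whereas Serpina11 had no count in either. Serpina3g was the most abundant in LN-LEC, at 17180 ± 732 against 2342 ± 475 and 35.4 ± 6.52 (8.96, 0.19, edgeR adjusted p = 2.2e-12). Serpina1e ran the other way, with 102 ± 15 in LN-LEC and 10160 ± 1658 in LN-BEC (log2 difference -6.62, standard error 0.19, edgeR adjusted p = 1.3e-10). The serpins of clade A share sequence with one another, and their counts of unique fragments are uncertain to that extent.

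For Galnt14, 6 of 19 tested enzymes and substrates of the pathway were higher in LN-LEC and 4 lower relative to D-LEC, and 3 were higher and 9 lower relative to LN-BEC. Among all genes tested, 45.8% and 38.2% were called in these comparisons. The abundant transferases were not restricted. Galnt1 stood at 12806 ± 1451 in LN-LEC, at 6176 ± 515 in LN-BEC and at 15481 ± 233 in D-LEC. Galnt12 was high in both lymph node populations, at 305 ± 39.6 in LN-LEC and 305 ± 28.6 in LN-BEC against 5.0 ± 0.0441 (log2 difference of LN-LEC over D-LEC 5.91, standard error 0.22, edgeR adjusted p = 1.3e-10). Tnfrsf10b, the death receptor whose glycosylation has been linked to Galnt14, was higher in LN-LEC than D-LEC (4671 ± 515 against 3396 ± 550, log2 difference 0.48, standard error 0.12, edgeR adjusted p = 0.0052) and lower than in LN-BEC (9714 ± 923, edgeR adjusted p = 8e-06). Galnt3, an epithelial transferase, was at 131 in LN-LEC replicate 4 and 18.1 to 25.9 in the others, where Galnt14 ranged from 16.5 to 32.7 with its highest library also replicate 4.

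**Figure D3:**
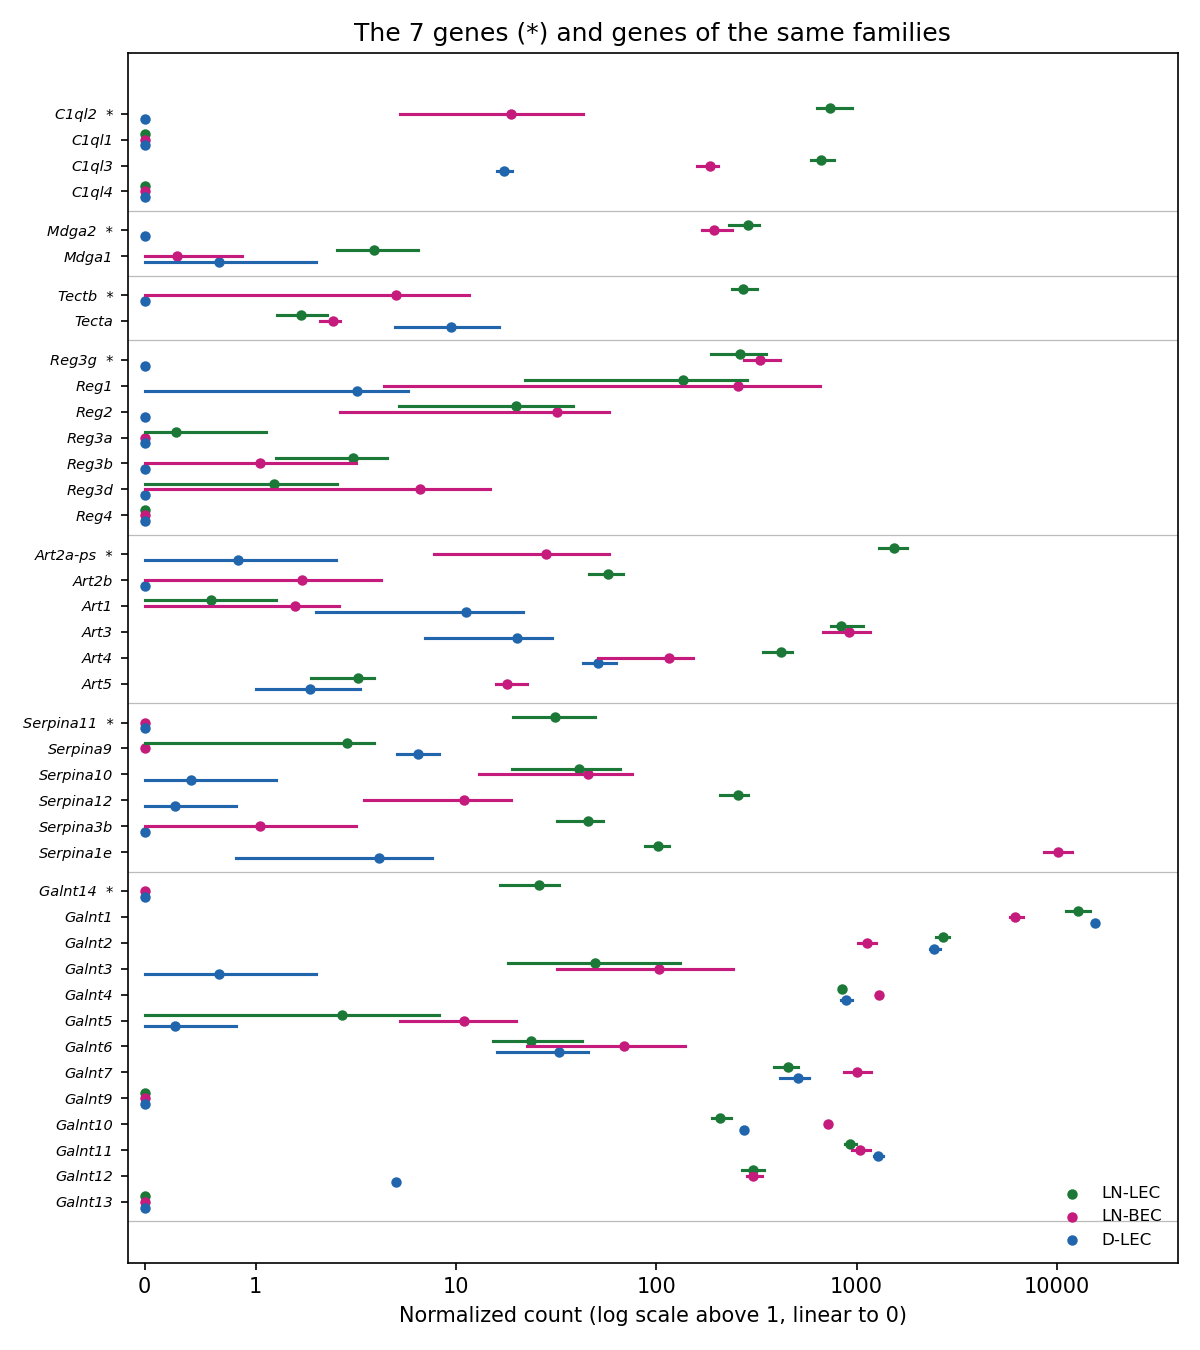
Normalized counts (x axis, logarithmic above 1 and linear down to 0) of the 7 genes, marked with an asterisk, and genes of the same families, with LN-LEC in green, LN-BEC in pink and D-LEC in blue. Points are means and lines run from the lowest to the highest library, and Art2b and Serpina12, like Art2a-ps and Serpina11, are highest in LN-LEC while Tecta and Mdga1 stay under 20 in all libraries.

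Genes near the members were also tested, since position was not part of the selection. Within 250 kb of the 7 genes lay 37 named genes, of which 31 were tested. Of these, 16 were higher and 3 lower in LN-LEC relative to D-LEC (61.3% called, against 45.8% of all genes), and 12 were higher and 5 lower relative to LN-BEC (54.8% called, against 38.2%). Many of these neighbours are family members of the Reg, Art2 and serpin clusters. Of the 15 neighbours that are no relatives, 8 were higher and 2 lower than in D-LEC, and 6 were higher and 2 lower than in LN-BEC.

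Marco, a scavenger receptor gene whose start lies 165 kb from that of C1ql2, had 25108 ± 7657 (LN-LEC, SD, n = 4), 744 ± 823 (LN-BEC, n = 3) and 6.73 ± 5.38 (D-LEC, n = 3). LN-LEC exceeded D-LEC (log2 difference 12, standard error 1.31, edgeR adjusted p = 1.7e-04) and LN-BEC (5.10, 0.88, edgeR adjusted p = 0.0024). In LN-LEC replicates 1 to 4 Marco was 29995, 20406, 33074 and 16957, so that the libraries stood in the same order as for C1ql2. Tyr, which is not among these neighbours, had the same order (354, 278, 509 and 259), so the order is not particular to this locus. Steap3, 69.5 kb from C1ql2, was higher than in D-LEC (edgeR adjusted p = 0.0014) and not called against LN-BEC (0.64). Gpam, 81.4 kb from Tectb and an enzyme of glycerolipid synthesis, was higher in LN-LEC, with libraries from 165 to 249, than D-LEC at 20.1 ± 4.69 (3.34, 0.28, edgeR adjusted p = 4.1e-07) or LN-BEC at 35.1 ± 9.80 (2.52, 0.27, edgeR adjusted p = 3.9e-06). Nearer to Tectb, at 1.8 kb, Gucy2g was not called over D-LEC or LN-BEC (edgeR adjusted p = 0.078 and 0.6). Acsl5, 57.1 kb from Tectb, was lower in LN-LEC than in D-LEC (edgeR adjusted p = 0.012) and not called against LN-BEC (0.059). Ehd3, 94.4 kb from Galnt14, was high in both lymph node populations, unlike Galnt14, at 4301 ± 369 and 5240 ± 695 against 197 ± 29.6 in D-LEC (4.46, 0.14, edgeR adjusted p = 3.7e-11). Arap1 near Art2a-ps was highest in LN-LEC (2.31, 0.12, edgeR adjusted p = 2.9e-09 over D-LEC, and 2.30, 0.12, 3.8e-09 over LN-BEC). Mdga2 had 1 named gene within that distance, Rpl10l, which had 0 counts in every library.

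**Figure D4:**
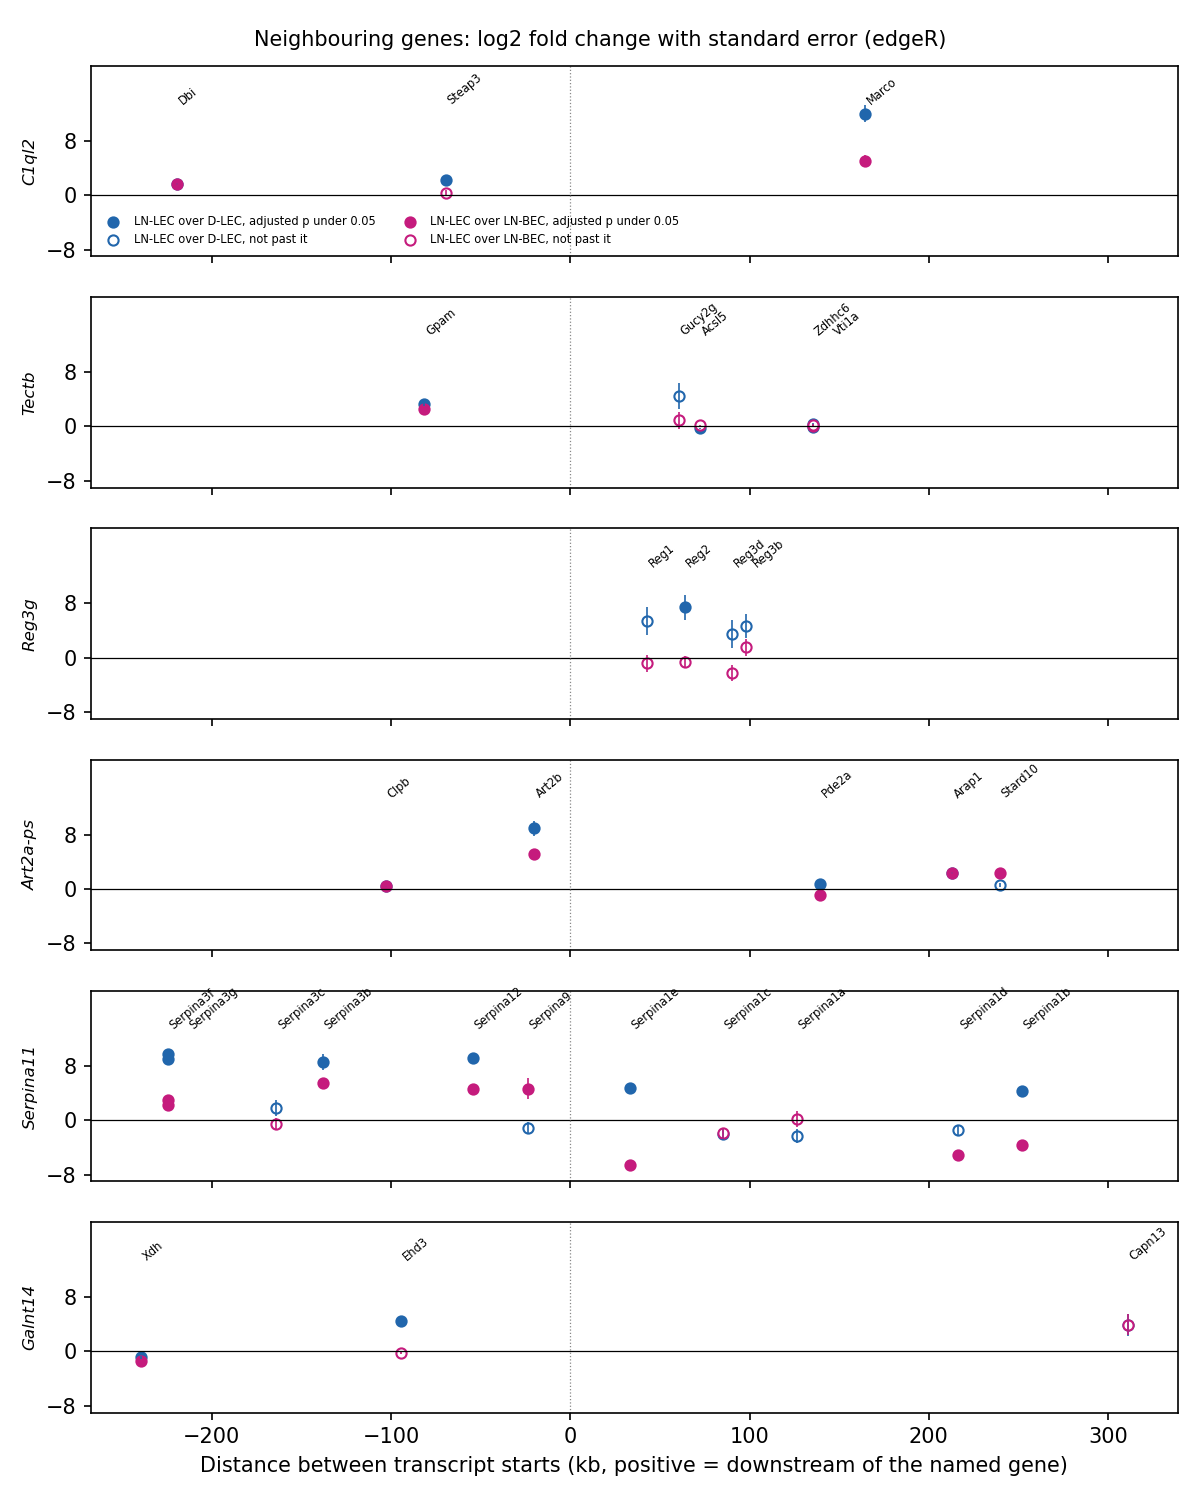
Fitted log2 difference with its standard error (y axis, edgeR) of the tested genes near 6 members, by the distance between transcript starts in kb (x axis), for LN-LEC over D-LEC in blue and over LN-BEC in pink, with filled points at an adjusted p under 0.05 (for genes without a count in a population, such as Art2b in D-LEC, the size depends on the fit). Marco near C1ql2, Art2b near Art2a-ps and Serpina3f, Serpina3g, Serpina3b and Serpina12 near Serpina11 are high in both comparisons, and Serpina1e and Serpina1b are above 0 for D-LEC and below 0 for LN-BEC.

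Over the 10 libraries, the genes most like each member were found by Pearson's r of log2(normalized count + 1), given as a description because libraries of 1 population share their level. Mdga2 and Reg3g resembled each other (r = 0.992), as did C1ql2 and Art2a-ps (0.989) and Serpina11 and Galnt14 (0.986), while Reg3g and Galnt14 were the least alike (0.493). The most similar genes were Hs3st5, Clec4g and Colq for C1ql2 (0.997 to 0.995), Cadps, Hpse and Art2b for Tectb (0.999 to 0.997), and Gria3, Cyp1b1 and Bmp8a for Art2a-ps (0.999 to 0.998). They were Trim30d, Nlrc5 and Clu for Mdga2 (0.998 to 0.997), Fbxl7, Galnt12 and Dsg2 for Reg3g (0.999 to 0.997), Tgfbr3 for Serpina11 (0.995), and Serp2, Tgfbr3 and Lrrtm4 for Galnt14 (0.998 to 0.993). Pearson's r does not compare levels, and several of the named genes were not restricted like their member. Tgfbr3, at a mean of 37166 normalized counts (LN-LEC), still had 14172 (LN-BEC) and 13859 (D-LEC), where Serpina11 and Galnt14 had 0 counts. The D-LEC mean was 911 for Fbxl7 and 736 for Nlrc5, unlike Reg3g and Mdga2. Hs3st5 and Art2b had a D-LEC mean of 0, like C1ql2 and Tectb. Between 203 and 411 genes had an r over 0.95 with a given member. Cadps (168 in LN-LEC, 5.02 in LN-BEC, 0 in D-LEC) shared with Tectb the absence from D-LEC, and Lrrtm4 shared with Serpina11 and Galnt14 the 0 counts in all LN-BEC and D-LEC libraries.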

How the data were processed

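RNA of sorted LN-LEC (4 libraries), LN-BEC (3) and D-LEC (3) was amplified and sequenced as read pairs. The authors trimmed the reads, mapped them with STAR (build mm9) and used featureCounts 1.4.4 (the version in the file header) to count unique fragments on exons. The deposited values are raw counts per gene symbol, beside a column of exon lengths used here for levels per kb. The members and gene lists were chosen with earlier results of these data known. Libraries were grouped by the cell population in the labels, and replicates were numbered in order of record. The 3755 rows of predicted or unnamed genes were left out, and the 15373 genes whose mean normalized count reached 1 in any population were tested by edgeR 4.0.16 under R 4.3.3 (TMM normalization, robust quasi-likelihood model with a mean for each population, 10 libraries, Benjamini-Hochberg over all genes tested, adjusted p under 0.05). DESeq2 1.42.0 gave the size factors of normalized counts and a Wald test as an alternative. Libraries held 22429940 to 48906070 counts, so that 3 counts correspond to 0.0613 to 0.134 CPM, and a fold against a population without counts was computed against 3 counts per library. The scripts were tested on simulated data. Start windows and copies of exon windows were read from the mm9 genome with pysam 0.24.0 and blastn 2.17.0. Symbols with exons at several places were not used as neighbours. Named genes were the 7 members, family relatives, listed genes called without overlap of libraries, neighbours within 250 kb, and for each member the 3 genes with the highest r. A few of the genes and sequences that this rule takes in are not reported here. The libraries carry no labels for batch or sorting day, and nothing in the labels says that replicates are separate cultures or animals beyond pools of mice.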

Additional observations from a re-analysis of the deposited data

How the results depend on the processing

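The alternatives were TMM against DESeq2 size factors, edgeR against DESeq2, no filter on low counts, leaving out each library in turn, and for neighbours a distance of 500 kb. The median log2 difference of the 7 genes between LN-LEC and D-LEC was 11.08, and 10.52 with DESeq2's Wald test (the cause was not tested). Leaving out 1 library gave 10.95 to 11.17. With 0 counts for 6 of the 7 genes in every D-LEC library, this size depends on the fit. Placed at the floor of 3 counts per library, the median was 6.46. The genes were selected for this difference, so the narrow range is no support for its size. Between LN-LEC and LN-BEC the fitted median was 5.83 and ranged from 5.22 to 6.82, the highest without LN-BEC replicate 3. With 1 library left out, 38 to 46 related genes were called for LN-LEC and D-LEC, beside 44 in the main fit. The numbers were 34 to 37 beside 36 for LN-LEC and LN-BEC, and 49 to 55 beside 57 for LN-BEC and D-LEC. DESeq2's Wald test gave 45, 38 and 54 in this order, and the fit without a filter 44, 36 and 56. Neighbours called with 1 library left out numbered 18 to 22 beside 19 for D-LEC and 16 to 18 beside 17 for LN-BEC. The Wald test gave 20 and 19. At 500 kb, 31 of 55 neighbours (56.4%) were called between LN-LEC and D-LEC, and 25 (45.5%) between LN-LEC and LN-BEC. These shares were lower than the 61.3% and 54.8% at 250 kb. Over all genes tested they were 45.8% and 38.2%. The percentages of LN-LEC in LN-BEC ranged, with 1 library left out, from 0.887 to 3.46 for C1ql2, 0.644 to 2.77 for Tectb and 0.884 to 2.52 for Art2a-ps. No paired analysis was possible because the labels give the libraries no replicate numbers that populations share. With 0 counts in a library, depth limits what can be said to below 3 counts, and low members such as Galnt14 have correspondingly small bounds.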

Other observations

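Genes used as examples of tissue antigens in lymph node stroma were also read, in a list that held the regulators Aire, Deaf1 and Fezf2. Tyr, the melanocyte enzyme tyrosinase, had 354, 278, 509 and 259 normalized counts in LN-LEC replicates 1 to 4, 7.88, 14.7 and 34.7 in LN-BEC and 2.52, 14 and 9.92 in D-LEC, so that LN-BEC replicate 3 was again the highest of its population. Ppy, a pancreatic hormone gene, had 18.1, 29.2, 19.2 and 20.7 in LN-LEC, 0, 0 and 1.05 in LN-BEC and 8.83, 5.01 and 2.48 in D-LEC. Of the 9 genes of this list that were tested, 2 were higher and 1 lower in LN-LEC than in D-LEC by edgeR at an adjusted p under 0.05. The higher genes were Tyr (edgeR adjusted p = 1.4e-05) and Ppy (0.015), and the lower was the regulator Deaf1 (0.011). Over all genes tested, 45.8% were called in this comparison. Aire, the regulator of such antigens in thymus, had 2, 0, 4 and 6 fragments in LN-LEC and 0 in all other libraries, and was not called (edgeR adjusted p = 0.058 over D-LEC and 0.061 over LN-BEC).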
